A study of Mus musculus with 4 samples.

Results

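Matricellular proteins are secreted into the extracellular matrix, where they act less as building material than as signals that alter how cells attach, migrate and respond to growth factors. The 10 members of this group described here are the thrombospondins Thbs1, Thbs2 and Thbs3, the tenascin gene Tnc, periostin (Postn), Sparc, and the CCN family genes Ccn1 (Cyr61), Ccn2 (Ctgf), Ccn4 (Wisp1) and Ccn5 (Wisp2). They were chosen by gene symbol, and every probe annotated to one of them was used, 21 probes among the 25697 on the arrays. The 10 members stand among 16593 genes with a named probe.

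The arrays measured total RNA of embryonic fibroblasts from p19ARF-/- mice, so that every array comes from cells without this activator of the p53 pathway. The cells had been stably transduced with wild-type NSD2, the methyltransferase that places the histone mark H3K36me2, or with a control vector, and were grown in serum-containing medium with no treatment. There were 2 arrays with NSD2 and 2 with the control vector, replicates 1 and 2 of each by their titles, although the design text speaks of triplicates. Nothing in the labels says whether replicates were separate cultures or transductions, so the p-values cover the spread among these arrays, part or all of which could be technical. No named probe was annotated to Nsd2 itself, so the level of the transduced gene was not analysed here.

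As background, the cell receptors of thrombospondins include CD47, CD36 and integrins, though not every thrombospondin binds each of them. Thbs1 is known to activate latent TGF-beta, and Thbs1 and Thbs2 restrain the growth of blood vessels. Tenascin-C, periostin and SPARC appear where connective tissue is being built or repaired, and SPARC binds collagen. The CCN proteins bind integrins and heparan sulphate proteoglycans. Ccn1 and Ccn2 are textbook targets of the transcriptional coactivators YAP and TAZ and rise soon after serum stimulation, while Ccn4 was first described as a gene induced by WNT1. CCN5 differs from the other members of its family in lacking their carboxy-terminal cysteine knot domain.

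The median signal over all probes was 164 and 172 on the NSD2 arrays and 173 and 204 on the control vector arrays, and each array had between 42.3% and 45.9% of its probes above background. The upper quartile of the signal followed the replicate number: it was 345 (NSD2 1) and 491 (NSD2 2), against 357 (control vector 1) and 490 (control vector 2). Levels below are therefore given as log2 intensity after background correction and quantile normalization, except where signal is stated. No member's level is set against another gene's. The labels of all 4 arrays call the cells embryonic fibroblasts, and they also name the tissue as blood and carry an entry for age, with no unit, that does not describe embryonic cells. Of 9 fibroblast markers with a probe 7 were above background on all 4 arrays, including Col1a1, Col1a2, Col3a1 and Pdgfra, while Lum was above it on none and Pdgfrb on 1. Among haematopoietic markers with a probe, 0 of 4 were above background on all 4 arrays, with Cd3e above it on 2 and the defining marker Ptprc (CD45) on 1. The same count was 0 of 7 for endothelial markers, 3 of 7 for smooth muscle and pericyte markers (Acta2, Tagln and Mcam), 1 of 6 for cartilage and bone (Sp7) and 3 of 5 for epithelial markers (Krt8, Krt18 and Krt14). The summed signal of the epithelial markers was 24774 and 36142 on the NSD2 arrays and 19280 and 35589 on the control vector arrays. Most of it was Krt14, with 21804 and 31549 on the NSD2 arrays and 16363 and 31041 on the control vector arrays. The sum was higher with NSD2 in both same-numbered pairs, and differed more between replicates than between groups. In bulk RNA fewer cells of a type and less RNA per cell cannot be told apart.

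The comparison asks whether the 10 matricellular genes differ once NSD2 is added. Transcripts of 9 members were above background on all 4 arrays, and 0 of the 10 passed the test in either direction (limma, Benjamini-Hochberg adjusted p under 0.05 over all probes), against 0.0241% of all genes. Thbs2 had the largest lower mean with NSD2, by a log2 value of -0.42, and Ccn5 the largest higher mean, by 0.41. No member probe reached an unadjusted p of 0.05, the smallest being 0.070, while 3.91% of all genes did. Thbs2 and Ccn5 each fell below 0.05 unadjusted in 3 of 14 alternative settings, at the lowest to 0.0241 and 0.0149, and passed the adjusted test in 0. Of the 9 measured members, 3 had higher and 6 lower means with NSD2, with a median log2 difference of -0.14, against -0.004 over the 6902 genes above background on all 4 arrays. The values of the groups did not overlap in 2 of those 9 members, against 30.7% of those 6902 genes and 32% of all genes. Counted over probes in place of genes, they did not overlap at 8 of the 21 member probes (3 higher and 5 lower with NSD2), against 31.9% of all probes. With 2 arrays against 2, an exact test of 1 gene cannot give a two-sided p below 0.333, and the limma test borrows its estimate of spread from all probes.

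**Figure D1:**
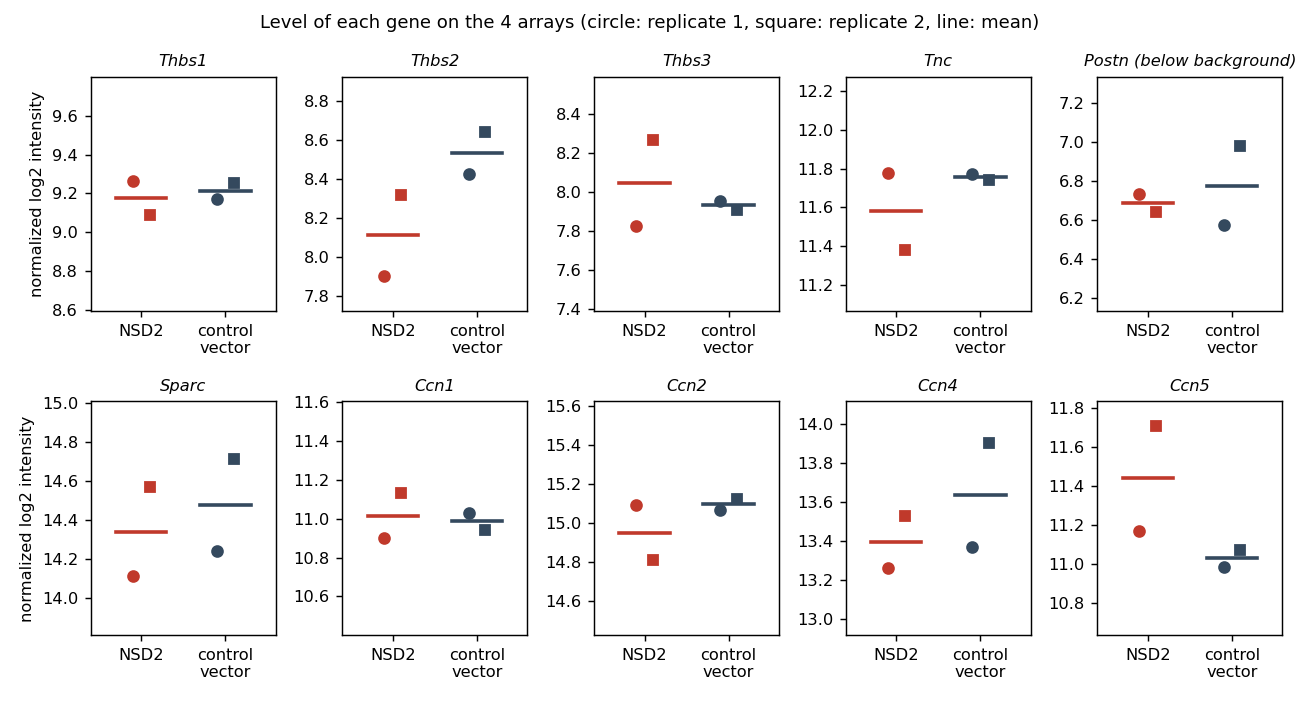
Normalized log2 intensity of each of the 10 matricellular genes on every array, with NSD2 left of control vector, circles for replicate 1, squares for replicate 2 and a line at the mean of 2 arrays. Each panel spans the same height on the log2 scale around the gene's own mean, so distances can be compared between panels; only Thbs2 and Ccn5 show groups that do not overlap.

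Thbs2, which encodes an inhibitor of angiogenesis that also shapes collagen fibrils, had log2 intensities of 7.91 and 8.32 with NSD2 and 8.43 and 8.65 with the control vector. Both NSD2 arrays lay below both control arrays, though the higher NSD2 value and the lower control value were close. The log2 difference was -0.42 ± 0.22 (SE, n = 2 per group, limma adjusted p = 0.9996), with a 95% interval of -0.88 to 0.04. It was -0.21 without NSD2 replicate 1 and -0.63 without NSD2 replicate 2, so its size depends on which NSD2 array is used. Before normalization the same probe read 261 and 449 with NSD2, against 352 and 555 with the control vector, and the dimmer pair of arrays (replicate 1) and the brighter pair (replicate 2) gave log2 differences of -0.52 and -0.32. A difference of this size or larger was seen in 4.49% of the genes above background on all 4 arrays. Thbs2 was singled out as the member with the largest difference, so this share is not that of a gene chosen beforehand. The genes whose 4 values, centred on their own mean, lay nearest to those of Thbs2 among 6901 genes were Gsdmd, Cdkn2d and Akap8l, with root mean square distances of 0.016, 0.021 and 0.025 on the log2 scale. Over 4 arrays such likeness describes these libraries and no more.

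The other thrombospondins stayed closer together. Thbs1, the activator of latent TGF-beta, had values of 9.27 and 9.09 with NSD2 and 9.17 and 9.26 with the control vector. The groups overlapped, and the log2 difference of -0.04 ± 0.20 (SE) had a 95% interval of -0.47 to 0.40. Thbs3, a pentameric family member expressed in skeletal tissue, had values of 7.82 and 8.27 with NSD2 and 7.95 and 7.91 with the control vector, a log2 difference of 0.11 ± 0.22. NSD2 replicate 2 was the high sample and NSD2 replicate 1 the low one, so both control values lay between them. The other Thbs3 probes, above background on 2 and 1 arrays, gave log2 differences of -0.03 and -0.08.

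Tnc, which encodes the large hexameric adhesion-modulating protein tenascin-C, had 6 probes, the most of any member. The probe with the highest mean read 11.78 and 11.38 with NSD2 and 11.77 and 11.74 with the control vector. NSD2 replicate 1 lay level with the controls and NSD2 replicate 2 below them, and the log2 difference was -0.18 ± 0.21 (SE). A further bright Tnc probe read 10.99 and 10.97 with NSD2 and 11.21 and 11.39 with the control vector, so its groups did not overlap, and differed by -0.32 ± 0.20 (limma adjusted p = 0.9996). Of the 4 dimmer Tnc probes, the pair above background on all arrays differed by 0.08 and 0.01, and the pair above it on none by -0.19 and -0.28.

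Postn, the gene of the fasciclin-domain protein periostin, has 1 probe, which was above background on 0 arrays. Its signal was 158 and 158 on the NSD2 arrays and 156 and 218 on the control vector arrays, each under that array's threshold, so no difference in periostin transcript could be measured here. Sparc encodes the collagen-binding glycoprotein also called osteonectin. Its brightest probe read 14.11 and 14.57 with NSD2 and 14.24 and 14.71 with the control vector (log2 difference -0.14 ± 0.23, SE), with overlapping groups and the replicate 2 array the higher in both. The other Sparc probe had the opposite sign, with 14.20 and 14.50 with NSD2 and 14.14 and 14.16 with the control vector (0.20 ± 0.21), and its groups did not overlap. The direction for Sparc thus depends on the probe.

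**Figure D2:**
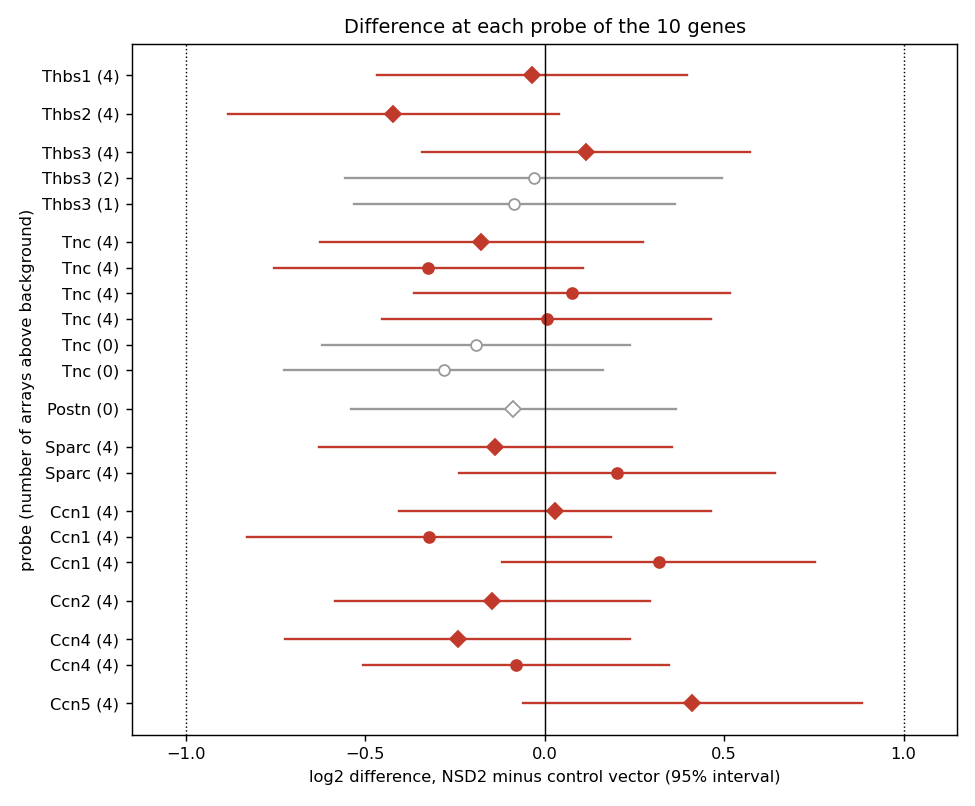
Log2 difference, NSD2 minus control vector, with its 95% interval from the limma fit, at each of the 21 probes of the 10 genes. The number of arrays above background is in brackets, diamonds mark the probe used for each gene, filled red symbols are probes above background on all 4 arrays, grey open ones are not, and dotted lines mark a 2-fold change; every interval crosses 0 and stays inside the dotted lines.

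Among the CCN genes, Ccn5 had the largest difference. This gene, known in fibroblasts and smooth muscle cells as a restraint on growth and motility, had log2 intensities of 11.17 and 11.71 with NSD2 and 10.98 and 11.07 with the control vector. Both NSD2 arrays were above both controls, NSD2 replicate 2 by much more than replicate 1. The log2 difference was 0.41 ± 0.22 (SE, n = 2 per group, limma adjusted p = 0.9996), with a 95% interval of -0.06 to 0.88, and 0.19 between the dimmer and 0.64 between the brighter arrays. Without NSD2 replicate 2 the difference was 0.14 and without NSD2 replicate 1 it was 0.68, so the size rests mostly on that array. The signal before normalization was 1899 and 4239 with NSD2 and 1713 and 2646 with the control vector. A difference at least as large was seen in 4.88% of the genes above background on all 4 arrays. Ccn5 too was singled out by its size, as the member with the largest higher mean.

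Ccn1 and Ccn2, the immediate-early members of the family, had groups that overlapped at the brightest probe of each, while the other Ccn1 probes differed in opposite directions. Ccn2, a cofactor of TGF-beta in fibrosis, had values of 15.09 and 14.81 with NSD2 and 15.07 and 15.12 with the control vector. NSD2 replicate 2 was the low sample and the other 3 were nearly level, and the log2 difference was -0.15 ± 0.21 (SE) with a 95% interval of -0.58 to 0.29. Ccn1, which encodes an angiogenic integrin ligand, had values of 10.90 and 11.13 with NSD2 and 11.03 and 10.94 with the control vector at its brightest probe, a log2 difference of 0.03 ± 0.21. Its other probes, both above background on all 4 arrays, moved apart from each other. The first read 10.03 and 10.15 with NSD2 and 9.67 and 9.88 with the control vector, without overlap (0.32 ± 0.21). The second read 9.89 and 9.60 with NSD2 and 10.40 and 9.73 with the control vector (-0.32 ± 0.24). With 3 probes at 0.32, 0.03 and -0.32, the array gives no common direction for Ccn1.

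Ccn4, the WNT1-induced member, had values of 13.26 and 13.53 with NSD2 and 13.37 and 13.91 with the control vector. Control vector replicate 2 stood highest and the groups overlapped, with a log2 difference of -0.24 ± 0.23 (SE). Its dimmer probe read 9.99 and 9.96 with NSD2 and 10.01 and 10.10 with the control vector, which gave -0.08 ± 0.20, with groups that did not overlap. Without control vector replicate 2 the difference at the brightest probe was 0.025, so its sign rests on that array.

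The 95% intervals rest largely on a spread that limma borrows from all probes, and they describe these arrays only. In the main setting, 16 member probes were above background on all 4 arrays. At all 16 the 95% interval of the difference included 0 and lay inside a 2-fold change either way. The outermost bounds were -0.88 and 0.88 on the log2 scale. The SE varied with the setting. For Thbs2 the difference was -0.47 ± 0.28 with a normexp offset of 16 and -0.53 ± 0.28 with the authors' processed values. With no background correction it was -0.35 ± 0.15. Ccn5 differed by 0.47 ± 0.35 with median scaling. The 2-fold limit is therefore stated for the main setting only. A p above the threshold does not show that the levels were equal. Comparing the dimmer and the brighter pair of arrays, 4 of the 9 measured members (Thbs2, Sparc, Ccn4 and Ccn5) had the same sign in both pairs, against 58.1% of the genes above background on all 4 arrays.

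**Figure D3:**
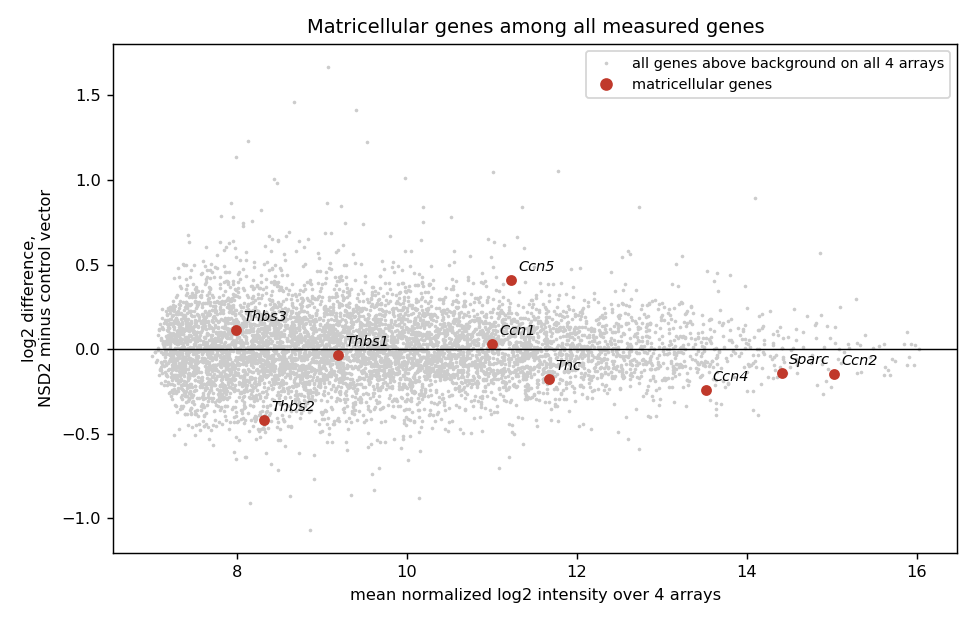
Log2 difference, NSD2 minus control vector, against mean normalized log2 intensity for the 6902 genes above background on all 4 arrays (grey) and the 9 measured matricellular genes (red). The 9 lie between -0.42 (Thbs2) and 0.41 (Ccn5), inside the cloud of the other genes.

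The stretch of 250 bases before the annotated start is given for Ccn1, because its 3 probes disagreed and it is a textbook YAP and TEAD target, and for Thbs2, because it had the largest difference. Both are from RefSeq (GRCm38.p6), Ccn1 at chr3:145649986-145650235 and Thbs2 at chr17:14694263-14694512, both on the minus strand and written 5′ to 3′ in the direction of transcription. Capitals mark the TEAD motif, GGAATG, read here on the opposite strand.
Ccn1: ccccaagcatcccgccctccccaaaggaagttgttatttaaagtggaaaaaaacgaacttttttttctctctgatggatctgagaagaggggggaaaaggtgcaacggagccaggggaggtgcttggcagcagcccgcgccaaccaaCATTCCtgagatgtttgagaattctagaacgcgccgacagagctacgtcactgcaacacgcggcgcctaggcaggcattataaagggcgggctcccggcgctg
Thbs2: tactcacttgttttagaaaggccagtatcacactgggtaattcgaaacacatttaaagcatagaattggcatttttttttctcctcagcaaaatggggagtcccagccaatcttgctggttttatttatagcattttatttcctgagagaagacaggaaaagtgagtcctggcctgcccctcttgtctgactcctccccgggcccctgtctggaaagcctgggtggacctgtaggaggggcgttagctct
The Ccn1 match lies 103.0 to 98.0 bases before the start. RefSeq windows were found for 6 members (8 windows, since Tnc and Postn have a pair each), and 1 of the 8 held GGAATG on either strand, against 12.6% of 32851 such windows in the table. Thbs1, Ccn2, Ccn4 and Ccn5 had no window, so Ccn1 is the only CCN member searched. The AP-1 motif TGANTCA was in 0 of the 8, against 6.75% of all windows, and the CArG box of serum response factor in 0, against 1.47%. A match describes letters in this window, not a bound site, and no match says only that the letters are not there.

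Genes related to the members by family, binding or regulation were followed through lists that overlap none of the 10. A gene was counted when its probe was above background on at least 2 arrays, and over the 7872 such genes 0.0508% passed the test, the groups did not overlap in 30.8%, and the median log2 difference was -0.003. Of the matricellular relatives, 15 of 19 had a probe and 6 were above background. Of these 6, 2 had higher and 4 lower means with NSD2, 0 passed, 2 did not overlap, and the median log2 difference was -0.14. The calcium-binding SPARC relative Smoc1 was at 8.33 and 8.35 with NSD2 and 8.63 and 8.70 with the control vector (-0.32 ± 0.20, SE), and the TGF-beta-induced adhesion gene Tgfbi differed by -0.31 ± 0.22 with overlapping groups. Ecm1 differed by -0.05, while Spon2, a secreted integrin ligand, and the SPARC relative Fstl1 differed by 0.12 and 0.11. Thbs4 and Comp, the remaining thrombospondins, were above background on 0 arrays.

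Receptors of the members had 12 of 18 with a probe above background, 5 with higher and 7 with lower means, and 0 passed. Their median log2 difference was -0.04 and the groups did not overlap in 3 of 12. Cacna2d1, the calcium channel subunit that serves as a thrombospondin receptor in neurons, was at 7.85 and 7.55 with NSD2 and 8.95 and 8.27 with the control vector. Both NSD2 values lay below both controls, with a log2 difference of -0.91 ± 0.24 (SE, limma adjusted p = 0.9996, unadjusted p = 0.0016). Of the 12 receptors, 2 had an unadjusted limma p under 0.05, as did 290 of the 7872 genes above background on at least 2 arrays. Lrp1, an endocytic receptor that clears thrombospondins and CCN2, was at 7.51 and 7.83 with NSD2 and 8.25 and 8.30 with the control vector. Its groups did not overlap (-0.61 ± 0.21, limma adjusted p = 0.9996, unadjusted p = 0.0105). The fibronectin receptor subunit Itga5 differed by -0.42 ± 0.24. Calreticulin (Calr), part of a thrombospondin receptor complex at the cell surface, differed by 0.58 ± 0.41, the laminin receptor subunit Itga3 by 0.39 ± 0.21 and the heparan sulphate proteoglycan Sdc4 by 0.39 ± 0.27. The thrombospondin receptor Cd47 differed by -0.02 ± 0.22, and Cd36 was above background on 0 arrays.

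Transcriptional regulators of the CCN and thrombospondin genes had 9 of 13 above background, 2 with higher and 7 with lower means, with a median log2 difference of -0.04 and 0 past the test. Yap1 differed by 0.16 ± 0.22 (SE) and its paralogue Wwtr1 (TAZ) by -0.18 ± 0.22. The TEAD factor Tead2 differed by 0.07. Srf, the serum response factor, and Smad4, the shared TGF-beta signal transducer, both differed by -0.23, each with groups that did not overlap, as in 2 of the 9 in all. YAP and TAZ target genes other than the members had 15 of 17 above background, 6 with higher and 9 with lower means and a median of -0.08, and 0 passed. Ankrd1, a mechanically induced target, was at 11.72 and 12.14 with NSD2 and 12.17 and 12.64 with the control vector (-0.47 ± 0.23), with groups that barely failed to meet. Nt5e and Foxf2 differed by -0.29 and -0.24, while Igfbp3 differed by 0.67 ± 0.20, Rbms3 by 0.41 and Ccdc80 by 0.21. Igfbp3 had a limma adjusted p of 0.9996 and an unadjusted p of 0.0047, and was the only 1 of the 15 under 0.05 unadjusted. The groups did not overlap in 4 of the 15.

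**Figure D4:**
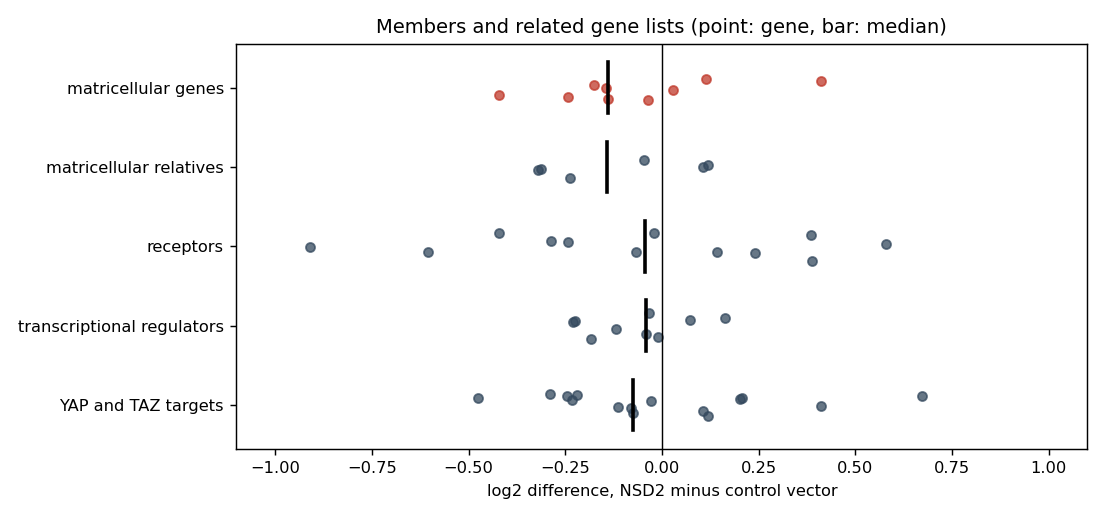
Log2 difference, NSD2 minus control vector, for each measured matricellular gene (red) and each gene of 4 related lists above background on at least 2 arrays (blue), with a black bar at the median and vertical scatter only to separate points. The medians lie between -0.14 and -0.04, and the widest spread is among the receptors, between -0.91 (Cacna2d1) and 0.58 (Calr).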

How the data were processed

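Total RNA was amplified and biotin-labelled and hybridised to Illumina mouse bead arrays, per the labels' protocols. Of the deposited tables, the first gives for every probe its average bead signal, a linear intensity with no normalization and no background subtraction, per the file headers. The second holds the authors' processed intensity, also linear. The steps behind it are not given in the sources used here. Each of its columns kept the probe order of the same array's signal (Spearman correlation 1 across probes), so it has the signal's direction and is not centred per gene. That order does not show the scale. Its medians were 48.6, 42.3, 48.7 and 42.4 (NSD2 1 and 2, control vector 1 and 2), and 1470, 225, 1319 and 765 of its values were negative. The scale was read as linear from these medians and negative values, while its normalization stays unknown.

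The bead signal was background-corrected with normexp (offset 50), log2-transformed, quantile normalized and tested with limma 3.58.1 in R 4.3.3 (lmFit, eBayes, 4 arrays, no covariate, two-sided), with Benjamini-Hochberg adjustment over all 25697 probes. The table holds no detection p-values, so background was estimated per array by mirroring the lower side of the signal distribution about its mode and taking the upper 5% point (178, 182, 185 and 219 for NSD2 1 and 2 and control vector 1 and 2). Differences are log2 values, NSD2 minus control vector; the offset shrinks those of dim probes. Probe symbols came from the platform annotation (23978 probes with 1 symbol, 0 with several, 1719 unnamed), matched to a RefSeq gene table (GRCm38.p6) for 23962 probes. A gene is given by its probe with the highest mean, and other probes of members are stated. The number of arrays limits the precision.

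The members and lists were chosen with earlier results of these data known. The rule for named genes takes all 10 members with every probe, up to 3 genes per direction of each of 4 related lists with the largest differences above background on all 4 arrays, and 3 genes most like the member with the largest difference. Genes named as absent or as marker examples were chosen after their values were seen. The procedure was tested on simulated data, with noise drawn independently for each array and with added changes larger than any member's difference. It therefore does not show how often differences as small as those of the members would be found. Alternatives in background correction, normalization, filter, probe choice, variance model and replicates are given in the closing section.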

Additional observations from a re-analysis of the deposited data

How the results depend on the processing

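Over 14 alternatives, 0 of the 10 matricellular genes passed the test, and the smallest adjusted p was 0.56 (Thbs2, with the replicate number as a term). Unadjusted p fell under 0.05 with no background correction (0.046 for Thbs2, 0.0424 for Ccn5), with the replicate number as a term (0.0313 and 0.0371), without NSD2 1 for Ccn5 (0.0149) and without NSD2 2 for Thbs2 (0.0241). The sign held in 125 of 138 differences over these alternatives, but many of them could not change. Both filters on dim probes, the robust variance and the replicate term returned the main difference itself. The probe of largest variance did the same for each gene where it was the probe already used. Thbs2 (-0.63 to -0.21), Ccn2 (-0.29 to -0.0053) and Ccn5 (0.14 to 0.68) kept their sign in all 14. These genes have 1 probe each, so the 14 include all of the settings in which their sign could not turn. Thbs1 turned to 0.030 with median scaling. With the probe of largest variance, Thbs3 turned to -0.031 and Ccn1 to -0.32, each being another probe. Leaving out 1 array turned signs too: the range was -0.12 to 0.052 for Thbs1 (0.0064 without control vector 2), -0.11 to 0.34 for Thbs3, -0.37 to 0.020 for Tnc, -0.29 to 0.11 for Postn, -0.37 to 0.097 for Sparc, -0.088 to 0.14 for Ccn1 and -0.51 to 0.025 for Ccn4. A group left with 1 array has no spread of its own, so the fit took it from the other group and from all probes. Without either control vector array the SE was 0.29 for all 10 members, so no member's own spread entered there. Postn has no value with either filter on dim probes. Same-numbered arrays deviated together (Pearson r = 0.52 over 9779 probes, probes not being independent), but 2 pairs do not settle that the numbers pair the samples. The replicate block gave 37 changed genes against 4 without it, and Thbs2 and Ccn5 had adjusted p of 0.56 and 0.59 there; it changed no member's call.

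Over all genes, the count of 4 changed genes became 0 with a normexp offset of 16 (677 genes then had an unadjusted p under 0.05), with median scaling (210), with the values the authors had processed, floored at 16 (1012), and with probes above background on all 4 arrays (236), all in limma. It became 1 with probes above background on at least 2 arrays and 10 with a robust trended variance. Leaving out 1 array gave 5 to 12 genes, 11 without control vector 1 and 12 without control vector 2. The cause was not tested.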
